A study of Homo sapiens with 6 samples.

Results

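The integrin subunit genes ITGA2, ITGA3, ITGA5, ITGA6, ITGAV, ITGB1, ITGB3, ITGB4, ITGB5 and ITGB8 were examined in MDA-MB-231 cells, an established human line of triple-negative breast cancer (TNBC), after knockdown of YAP1. These 10 genes were taken by symbol from the 60612 genes of the expression values, and all 10 were found. They are part of a family of 26 subunit genes, of which 18 code for alpha and 8 for beta subunits. RNA was sequenced from 3 libraries of cells with a control hairpin (Sh-NC, genotype labelled WT) and 3 libraries of cells with a hairpin against YAP1 (Sh-YAP1, genotype labelled YAP1 knockdown), all at day 3 and without drug treatment. The knockdown group rests on a single hairpin label in 1 cell line, and nothing in the labels says whether the libraries of a group came from separate cultures, so the errors and p-values measure the spread between these libraries, which may be technical. The values are FPKM (fragments scaled to transcript length and to library size), so levels of different genes can be set side by side. The depth of the libraries is unknown.

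Integrins are cell surface receptors made of 1 alpha and 1 beta subunit, and the pair decides which protein of the extracellular matrix is bound. The bound receptor links the matrix to the actin cytoskeleton through talin and kindlin and signals through focal adhesion kinase. YAP1 is a transcriptional co-activator that acts through TEAD factors, and its activity is known to respond to cell adhesion and to the stiffness of the matrix. In epithelial cells the laminin receptors are made of ITGA3 or ITGA6 with ITGB1, and of ITGA6 with ITGB4 in hemidesmosomes.

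YAP1, the targeted gene, was at 28.1, 26.2 and 22.9 FPKM in the 3 Sh-NC libraries, in the order of their replicate numbers, and at 3.35, 2.67 and 2.58 FPKM in the 3 Sh-YAP1 libraries, an order kept below. Its log2 fold change was -2.79 (SE 0.12, limma BH-adjusted p = 0.0018). The cells carried the profile of their label, with VIM at 1645 to 2303 FPKM over the 6 libraries, and with ESR1, PGR and CDH1 all under 1 FPKM in every library. The sum of the 6 leukocyte markers was 10.8 to 12.4 FPKM in Sh-NC and 11.7 to 15.6 FPKM in Sh-YAP1, nearly all of it ITGB2, while PTPRC did not exceed 0.04 FPKM and CD3E and ITGAM were listed at 0 throughout. The 3 platelet markers summed to 1.09 to 1.65 FPKM, the 3 endothelial markers to 1.00 to 2.10 FPKM and the 3 fibroblast markers to 5.18 to 10.2 FPKM over the 6 libraries, with PF4 listed at 0 and CDH5 at no more than 0.04 FPKM. Of 14770 genes that averaged 0.5 FPKM or more, 499 (3.38%) differed between the groups at a limma BH-adjusted p under 0.05 (Benjamini-Hochberg correction over all genes tested), with 259 (1.75%) up-regulated and 240 (1.62%) downregulated in Sh-YAP1. An unadjusted p under 0.05 was reached by 21.9% of the genes.

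The integrin repertoire of the Sh-NC cells was led by ITGA3 and ITGB1, the subunits of a laminin receptor. ITGA3 (ENSG00000005884, chr17:50055968-50090481, plus strand) was at 248, 253 and 237 FPKM, a mean of 246 ± 8.06 FPKM (SD, n = 3). ITGB1 (ENSG00000150093, chr10:32900319-33005792, minus strand), the common beta subunit and the partner of most alpha subunits, was at 199, 172 and 229 FPKM, a mean of 200.3 ± 28.6 FPKM (SD, n = 3). No library of ITGB1 reached the lowest value of ITGA3. ITGA3 alone held 62.5 ± 2.35% (SD, n = 3) of the FPKM of the 18 alpha genes, and ITGB1 held 59.0 ± 7.47% of the FPKM of the 8 beta genes. Together the 10 genes held 93.3% to 93.7% of the FPKM of the 26 subunits over the 6 libraries. Gene positions are those of GENCODE 29 on GRCh38.

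Next came ITGB4 (ENSG00000132470, chr17:75721328-75757818, plus strand), the beta subunit of hemidesmosomes, at 79.4, 101.8 and 63.4 FPKM in Sh-NC, and the 3 values lay apart from those of ITGB1 above and of the genes below. ITGB5, a partner of ITGAV that binds vitronectin, had a mean of 44.7 ± 5.11 FPKM (SD, n = 3). ITGA6 (ENSG00000091409, chr2:172427354-172506282, plus strand), the alpha partner of ITGB4 and also of ITGB1, had a mean of 44.3 ± 9.92 FPKM (SD, n = 3), and the values of ITGB5 and ITGA6 overlapped. ITGA5, the alpha subunit of the classical fibronectin receptor, followed at 29.5 ± 3.06 FPKM, and ITGA2, a collagen receptor subunit, at 27.9 ± 9.25 FPKM (SD, n = 3 each). These also overlapped, with ITGA2 at 38.5 FPKM in Sh-NC replicate 1 and at 22.3 and 22.7 FPKM in replicates 2 and 3.

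ITGAV (ENSG00000138448, chr2:186590065-186680901, plus strand), which binds RGD ligands such as vitronectin and latent TGF-beta and pairs with ITGB1, ITGB3, ITGB5, ITGB6 or ITGB8, was lower, at 9.45 ± 1.16 FPKM (SD, n = 3). ITGB3, which pairs with ITGAV outside platelets, was at 0.76, 0.70 and 0.89 FPKM. ITGB8, known for its part in activating latent TGF-beta, was at 0.42, 0.60 and 1.02 FPKM, so that ITGB3 and ITGB8 overlapped and both were far under ITGB5. Of the FPKM of ITGB3, ITGB5, ITGB6 and ITGB8, the beta subunits that pair with ITGAV other than ITGB1, ITGB5 held 95.4% to 97.4% in the Sh-NC libraries.

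**Figure D1:**
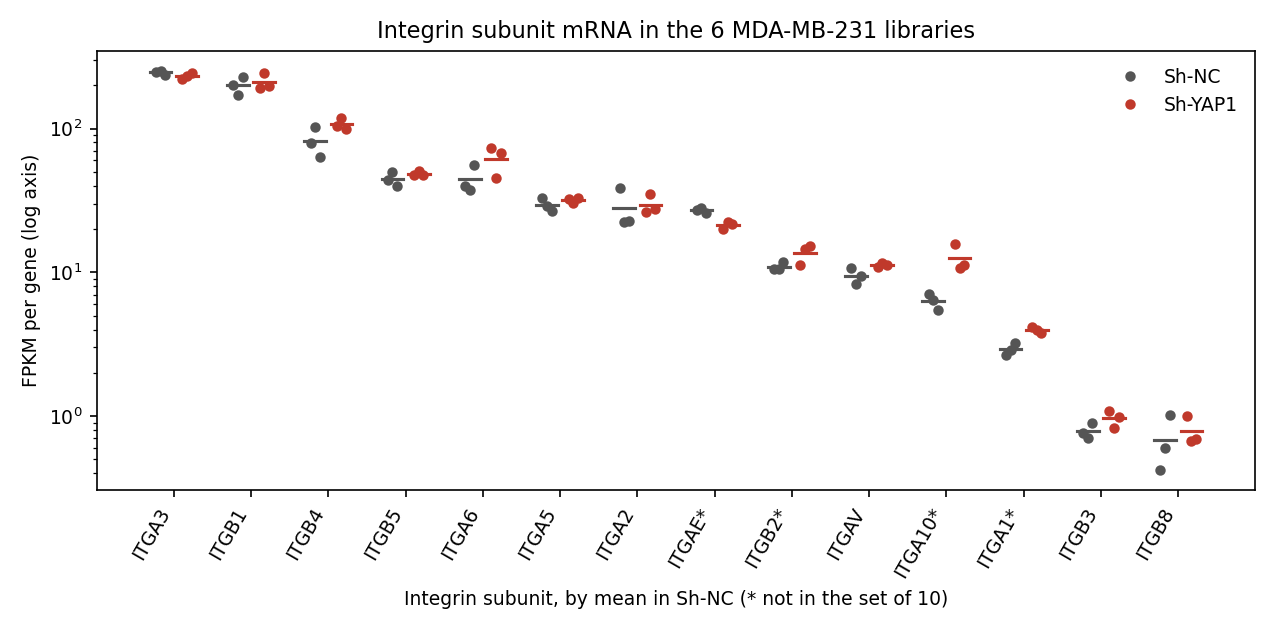
FPKM of the 14 integrin subunit genes that averaged 0.5 FPKM or more, on a log axis, with 1 point for each of the 3 Sh-NC and 3 Sh-YAP1 libraries and a bar at each group mean. The levels run from a mean of 246 FPKM for ITGA3 to 0.68 FPKM for ITGB8 in Sh-NC, and only ITGAV among the 10 genes has no overlap between the groups.

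Of the other 16 subunit genes, 4 had a mean of at least 0.5 FPKM. ITGAE, known from the lymphocyte receptor for E-cadherin, was the highest at 27.0 ± 1.08 FPKM (SD, n = 3) in Sh-NC, although its known partner ITGB7 did not exceed 0.04 FPKM in any library. ITGB2, the leukocyte beta subunit, was at 10.95 ± 0.81 FPKM (SD, n = 3), while ITGAL, ITGAM, ITGAX and ITGAD, its known alpha partners, stayed at or under 0.15 FPKM. The collagen receptor subunits ITGA10 and ITGA1 were at 6.29 ± 0.79 and 2.91 ± 0.27 FPKM (SD, n = 3 each). The remaining 12 genes, among them ITGA4 and the platelet subunit ITGA2B, did not exceed 0.22 FPKM in any library.

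None of the 10 integrin genes had a limma BH-adjusted p under 0.05 between Sh-YAP1 and Sh-NC, and their limma BH-adjusted p ranged from 0.22 to 0.804. In simulated data with the spread of these libraries, the same fit called 6 of 50 genes given a log2 change of 0.5. It called 32 of 50 given a log2 change of 1. Changes of 0.5 or less could therefore be missed. An unadjusted p under 0.05 was reached by 2 of the 10, ITGB4 and ITGAV, against 21.9% of all genes. The direction was upward for 9 genes and downward for ITGA3, against 49.8% upward over all genes tested. The median log2 fold change of the 10 genes was 0.12, beside -0.0014 over all genes. It was 0.19 with a pseudocount of 0.01 FPKM and -0.11 without the largest transcript row of each gene. The sign of the estimate turned for ITGA2 without Sh-NC replicate 2, Sh-NC replicate 3 or Sh-YAP1 replicate 2, for ITGB1 without replicate 2 of either group and for ITGB8 without Sh-NC replicate 1, with lowest estimates of -0.013, -0.026 and -0.014. Since RNA was pooled over cells, more cells that express a gene and more RNA per cell cannot be told apart in any of these values.

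The subunits of the hemidesmosome receptor had the largest estimates of the 10, and both moved with single libraries. With a library left out, ITGA6 ranged from 0.33 (without Sh-YAP1 replicate 1) to 0.67 (without Sh-YAP1 replicate 2) on the log2 scale, and ITGB4 from 0.26 (without Sh-NC replicate 3) to 0.59 (without Sh-NC replicate 2). ITGA6 was at 39.9, 37.4 and 55.7 FPKM in Sh-NC and at 73.1, 45.2 and 67.1 FPKM in Sh-YAP1. Sh-YAP1 replicate 2 lay under the highest Sh-NC library, so the groups shared a range. The log2 fold change of ITGA6 was 0.46 (95% interval -0.06 to 0.99, limma BH-adjusted p = 0.279). ITGB4 was at 79.4, 101.8 and 63.4 FPKM in Sh-NC and at 104.7, 119 and 99.6 FPKM in Sh-YAP1. Sh-YAP1 replicate 3 was just under Sh-NC replicate 2, and the other values were apart. The log2 fold change of ITGB4 was 0.42 (95% interval 0.01 to 0.83, limma BH-adjusted p = 0.22). The ratio of ITGA6 to ITGB4 was 0.502, 0.368 and 0.879 in Sh-NC and 0.698, 0.379 and 0.674 in Sh-YAP1, so the balance of the pair varied more within a group than between groups.

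The leading pair had small estimates with overlapping groups. ITGA3 was at 221, 231 and 244 FPKM in Sh-YAP1, a mean of 232 ± 11.9 FPKM (SD, n = 3). Its highest Sh-YAP1 library was inside the range of Sh-NC, and the log2 fold change was -0.08 (95% interval -0.24 to 0.07), which corresponds to 0.844 to 1.05 times the Sh-NC level on the scale of FPKM + 1. After quantile normalization the estimate was 0.04, so even its sign depended on the scaling, and it was -0.049 without Sh-YAP1 replicate 1. ITGB1 was at 192, 243 and 199 FPKM in Sh-YAP1, with a log2 fold change of 0.08 (95% interval -0.25 to 0.40). The share of ITGA3 in the FPKM of the alpha genes was 61.0%, 65.2% and 61.3% in Sh-NC and 54.8%, 59.1% and 58.2% in Sh-YAP1, without overlap between the groups. The summed FPKM of the 8 beta genes were 334 to 347 in Sh-NC and 357.5 to 429 in Sh-YAP1, and those of all 26 subunits were 723 to 742 and 760.3 to 820.1, also without overlap. The exact two-sided permutation p of each of these 3 quantities was 0.1, the smallest possible. The other 7 of the 10 shares and sums compared overlapped, among them the summed FPKM of the 18 alpha genes and the shares of ITGA6, ITGB1 and ITGB4. Of single genes, 29.4% did not overlap in either direction.

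The fibronectin and collagen receptor subunits of the set overlapped between the groups as well. ITGA5 was at 32.8, 29.1 and 26.8 FPKM in Sh-NC and at 32.1, 30.6 and 33.0 FPKM in Sh-YAP1, a log2 fold change of 0.11 (95% interval -0.11 to 0.33), which was 0.044 without Sh-NC replicate 3 and 0.19 without Sh-NC replicate 1. ITGA2 was at 26.1, 35.3 and 27.5 FPKM in Sh-YAP1, all inside the range set by Sh-NC replicates 1 and 2. Its log2 fold change was 0.12 with the widest interval of the 10 genes, -0.43 to 0.66.

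ITGAV was the only gene of the 10 without overlap between the groups. It was at 10.6, 8.31 and 9.41 FPKM in Sh-NC and at 10.9, 11.6 and 11.3 FPKM in Sh-YAP1, and Sh-NC replicate 1 came close to the Sh-YAP1 range. The log2 fold change was 0.24 (95% interval 0.00 to 0.48, limma BH-adjusted p = 0.228), with 0.16 without Sh-NC replicate 2 and 0.32 without Sh-NC replicate 1. By exact permutation (two-sided), p was 0.1, the smallest that 3 libraries against 3 allow. Of all genes tested, 14.6% were higher in every Sh-YAP1 library than in any Sh-NC library and 14.7% were lower, 29.4% in all, beside 1 of the 10 integrin genes.

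The beta partners of ITGAV showed small differences with overlapping groups. ITGB5 was at 43.7, 50.2 and 40.2 FPKM in Sh-NC and at 47.8, 50.5 and 47.4 FPKM in Sh-YAP1, a log2 fold change of 0.12 (95% interval -0.10 to 0.35), which was 0.051 without Sh-NC replicate 3 and 0.21 without Sh-NC replicate 2. ITGB3 was at 1.08, 0.83 and 0.98 FPKM in Sh-YAP1, a log2 fold change of 0.14 (95% interval -0.12 to 0.40). ITGB8 was at 1.00, 0.67 and 0.69 FPKM in Sh-YAP1, a log2 fold change of 0.10 (95% interval -0.29 to 0.49). At these levels the pseudocount of 1 FPKM is about as large as the value itself and shrinks the estimate. With a pseudocount of 0.01 FPKM the log2 fold changes were 0.29 for ITGB3 and 0.28 for ITGB8, with the groups still overlapping.

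**Figure D2:**
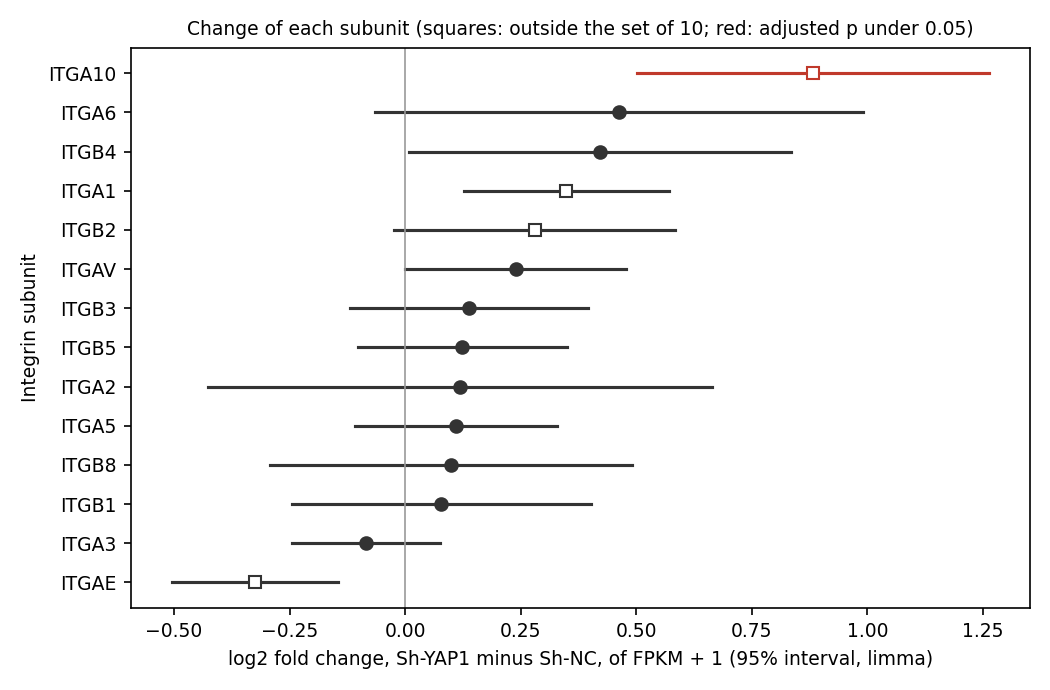
Log2 fold change of each integrin subunit gene between Sh-YAP1 and Sh-NC on the log2(FPKM + 1) scale, with 95% intervals from limma over 3 libraries against 3. Circles are the 10 genes, squares are 4 other subunits, and ITGA10, at 0.88, is the only one with a limma BH-adjusted p under 0.05.

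Ratios between subunits, which do not depend on the scaling of a library, were compared for 10 pairs, partners with each other and the beta subunits ITGB3 with ITGB5. The groups overlapped in all 10 pairs, and the exact two-sided permutation p was between 0.3 and 1, with 0.1 as the smallest p that 3 libraries against 3 allow. After Benjamini-Hochberg adjustment over the 10 pairs every permutation p was 1. ITGB5 was at 4.11, 6.04 and 4.27 times the level of ITGAV in Sh-NC and at 4.37, 4.34 and 4.2 times in Sh-YAP1. ITGA3 was at 1.25, 1.47 and 1.03 times the level of ITGB1 in Sh-NC and at 1.15, 0.95 and 1.23 times in Sh-YAP1. The ratio of ITGA6 to ITGB1 had the largest difference, with 0.20, 0.217 and 0.243 in Sh-NC against 0.381, 0.186 and 0.337 in Sh-YAP1.

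Outside the set, 1 of the 4 other expressed subunits passed the test, which 3.38% of all genes did. ITGA10, the collagen receptor subunit known from cartilage, rose from 7.01, 6.41 and 5.45 FPKM in Sh-NC to 15.7, 10.8 and 11.2 FPKM in Sh-YAP1. All Sh-YAP1 libraries lay above all Sh-NC libraries, and the log2 fold change was 0.88 (SE 0.16, limma BH-adjusted p = 0.0396). The call was lost when any of the 6 libraries was left out, with a limma BH-adjusted p of 0.0687 to 0.113 and a log2 fold change of 0.72 to 0.97. Without a filter on low genes the limma BH-adjusted p was 0.0891, and with replicate number added to the model it was 0.116. At 12.6 ± 2.72 FPKM (SD, n = 3) in Sh-YAP1, ITGA10 was far under its partner ITGB1. In Sh-YAP1 replicate 1, 27.0% of the ITGA10 total came from a transcript row listed at 0 or 0.01 FPKM in every other library. The leading row was at 4.52, 4.22 and 4.19 FPKM in Sh-NC and at 5.83, 7.96 and 7.97 FPKM in Sh-YAP1. No ITGA10 row passed when tested alone, with a lowest limma BH-adjusted p of 0.641.

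ITGA1 and ITGAE missed the threshold and, like ITGA10, had no overlap between the groups, which held for 29.4% of all genes in either direction. ITGA1 was at 2.66, 2.88 and 3.20 FPKM in Sh-NC and at 4.14, 4.0 and 3.79 FPKM in Sh-YAP1 (log2 fold change 0.35, limma BH-adjusted p = 0.0977). PELO overlaps ITGA1 on the same strand and went from 15.7 to 13.2 FPKM. ITGAE was at 27.1, 28.0 and 25.9 FPKM in Sh-NC and at 20, 22.4 and 21.7 FPKM in Sh-YAP1 (log2 fold change -0.33, limma BH-adjusted p = 0.0724). HASPIN, which overlaps ITGAE on the other strand, went from 13.0 to 9.82 FPKM, and whether the authors' quantification used strand is not given in the sources used here. ITGB2 overlapped between the groups, with a log2 fold change of 0.28. Among the 10 genes, ITGB4 overlaps GALK1 on the other strand, which went from 11.4 to 10.5 FPKM, and the overlapping genes of the other members were at or under 2.64 FPKM.

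YAP1 reaches DNA through TEAD factors, so the sequences around the annotated starts were searched for the TEAD core motif GGAATG and its reverse complement CATTCC. RefSeq windows on GRCh38.p14, from 250 bases before to 50 bases after a start, were found for 7 of the 10 genes, in 12 windows, and ITGA3, ITGB3 and ITGB4 were not among them. The motif was found in 1 window of ITGB1 and 1 of ITGA5, and, outside the set, in 1 of ITGA10. Of all 35116 windows, 14% held it. The windows with a match are printed 5′ to 3′ on the strand of the gene, because they belong to the leading beta subunit, to the fibronectin receptor and to the 1 subunit that passed the test, with the motif in capitals.
ITGA10 (chr1:145910001-145910300, minus strand): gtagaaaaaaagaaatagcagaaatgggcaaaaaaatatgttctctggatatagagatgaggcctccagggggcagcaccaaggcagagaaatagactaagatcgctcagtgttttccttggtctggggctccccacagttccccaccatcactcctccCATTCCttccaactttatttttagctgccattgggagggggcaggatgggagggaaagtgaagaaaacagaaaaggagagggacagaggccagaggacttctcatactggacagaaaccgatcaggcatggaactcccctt
ITGB1 (chr10:32958181-32958480, minus strand): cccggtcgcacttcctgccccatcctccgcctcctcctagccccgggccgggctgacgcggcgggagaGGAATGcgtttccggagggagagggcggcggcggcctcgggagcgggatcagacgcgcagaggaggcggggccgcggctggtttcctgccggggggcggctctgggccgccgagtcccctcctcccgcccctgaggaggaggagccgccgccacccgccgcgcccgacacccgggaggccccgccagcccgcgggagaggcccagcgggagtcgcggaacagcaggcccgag
ITGA5 (chr12:54419217-54419516, minus strand): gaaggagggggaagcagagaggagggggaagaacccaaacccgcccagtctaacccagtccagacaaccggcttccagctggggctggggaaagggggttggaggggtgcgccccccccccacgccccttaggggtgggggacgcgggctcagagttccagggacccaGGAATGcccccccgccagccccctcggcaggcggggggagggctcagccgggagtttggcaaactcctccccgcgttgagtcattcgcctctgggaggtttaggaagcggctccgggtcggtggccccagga
The motif began 91 bases before the RefSeq start of ITGA10, 182 before that of ITGB1 and 82 before that of ITGA5. The ITGB1 window lies inside the longer GENCODE gene. The GENCODE genes of ITGA10 and ITGA5 start further upstream than the RefSeq starts, at 145910189 and 54419460. All 3 motifs therefore lie inside the GENCODE genes. A match is a description of the letters and does not show binding. The genes with a match had log2 fold changes of 0.08 (ITGB1), 0.11 (ITGA5) and 0.88 (ITGA10). The 5 members whose windows held none were ITGA2, ITGA6, ITGAV, ITGB5 and ITGB8, with 0.10 to 0.46. Of the other expressed subunits, ITGA1 and ITGAE had windows without a match and log2 fold changes of 0.35 and -0.33.

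The values list 107 transcript rows for the 10 genes, without transcript names, and 72 of them had a mean of at least 0.1 FPKM. None had a limma BH-adjusted p under 0.05, which 0.0515% of all 77655 rows tested reached, and 3 had an unadjusted p under 0.05, which is 4.17% against 6.12% of all rows. For 6 of the 10 genes the row with the most FPKM was not the same in all 6 libraries. In ITGB1 the leading row held 77.3% to 93.5% of the gene in 5 libraries and 0.75% in Sh-NC replicate 3, where the second row was at 224 FPKM in place of 2.18 to 25.3 FPKM elsewhere. The ITGB1 total of 229 FPKM in that library was inside the range of the other 5 libraries, 172 to 243 FPKM.

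ITGAV had the same pattern in Sh-NC replicate 1, where its leading row held 13.1% and another row, listed at 0 in the other 5 libraries, held 80.3%. In ITGA6 the leading row held 26.7%, 70.2% and 93.4% in Sh-NC and 33.2%, 14.1% and 91.8% in Sh-YAP1. The second ITGA6 row was at 9.52, 8.53 and 2.07 FPKM in Sh-NC and at 42.4, 34.0 and 3.69 FPKM in Sh-YAP1. Sh-YAP1 replicate 3 lay inside the Sh-NC range in this row, while its ITGA6 total of 67.1 FPKM was above all Sh-NC libraries. In ITGB4 the third row was at 53.8 FPKM in Sh-NC replicate 2 and at 59.0 FPKM in Sh-YAP1 replicate 2 and was listed at 0 in the other 4 libraries.

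**Figure D3:**
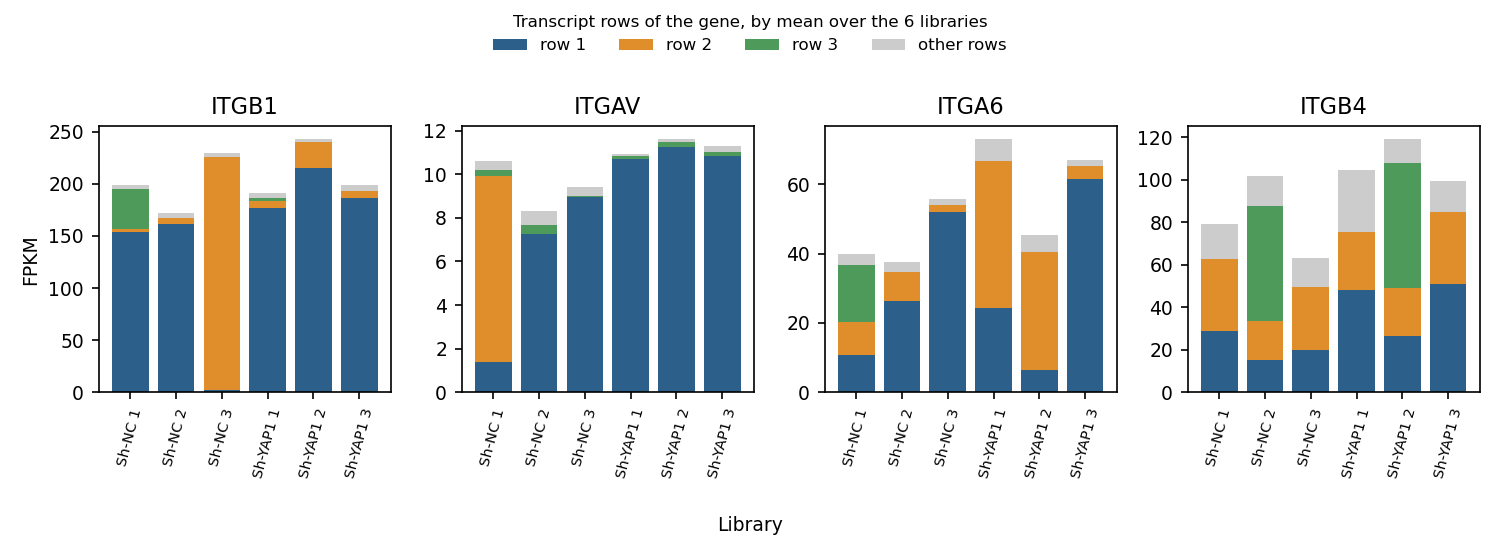
FPKM of the transcript rows of ITGB1, ITGAV, ITGA6 and ITGB4 in each of the 6 libraries, as stacked bars, with the 3 rows of highest mean in colour and all other rows in grey. The split over rows differs between libraries of the same group, as for ITGB1 in Sh-NC replicate 3, where the leading row holds 0.75% of the total.

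The genes that work with integrins were counted in 5 lists with 97 genes in all, of which 90 were tested. Of these 90, 4 rose and 3 fell at a limma BH-adjusted p under 0.05, where 1.75% of all genes rose and 1.62% fell. An unadjusted p under 0.05 was reached by 31 of the 90, against 21.9% of all genes. Without overlap between the groups, 18 were higher and 23 lower in Sh-YAP1, which held for 14.6% and 14.7% of all genes. Among the 13 genes that activate or inhibit integrins, 1 fell and the other 12 did not pass. DOK1, an adaptor known to inhibit integrin activation by competing with talin, fell from 14.8 ± 0.45 to 10.3 ± 1.02 FPKM (SD, n = 3 each), with a log2 fold change of -0.49 (limma BH-adjusted p = 0.0421). The most abundant genes of the list were FLNA, an actin crosslinker that binds beta tails, with 220 ± 30.2 and 181 ± 27.1 FPKM, and TLN1, the talin that switches integrins on, with 96.2 ± 10.9 and 105.7 ± 0.78 FPKM in Sh-NC and Sh-YAP1 (SD, n = 3 each). Neither passed the test.

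Of the 24 kinases and adaptors of focal adhesions that were tested, 1 fell. VCL, the vinculin that ties talin to actin, went from 88.1 ± 2.77 to 65.5 ± 5.34 FPKM (SD, n = 3 each), with a log2 fold change of -0.42 (limma BH-adjusted p = 0.0447). The call was lost after quantile normalization, without the mean-variance trend and without a filter, with limma BH-adjusted p of 0.0643, 0.0677 and 0.0809. DOK1 lost its call without the trend (0.0516) and without a filter (0.0785). ACTN4 and ACTN1, the actinins that bundle actin at adhesions, were the most abundant, with 303 ± 24.8 and 229 ± 31.5 FPKM in Sh-NC and log2 fold changes of 0.04 and -0.26, and neither passed.

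In the list of matrix and other ligands, 2 of the 27 genes tested rose and 1 fell. The list holds TGFB1, TGFB2 and TGFB3, and whether their proteins bound integrins in these cells was not tested. THBS1, the matrix protein thrombospondin, rose from 82.6 ± 1.26 to 112 ± 5.68 FPKM (log2 fold change 0.44, limma BH-adjusted p = 0.0245). FBN1, a fibrillin with an RGD site, rose from 9.0 ± 0.16 to 12.6 ± 0.56 FPKM (log2 fold change 0.45, limma BH-adjusted p = 0.0298). TGFB2, whose protein is held in a latent complex, fell from 12.8 ± 0.44 to 6.74 ± 0.75 FPKM (SD, n = 3 each), with a log2 fold change of -0.84 and a limma BH-adjusted p of 0.0123. TGFB1 and TGFB3 had log2 fold changes of 0.30 and 0.34 and did not pass (limma BH-adjusted p of 0.0955 and 0.151). LAMB3, a laminin chain and so a ligand of the leading receptors, did not pass, at 111 ± 5.85 and 100.2 ± 7.70 FPKM. CCN2, a matricellular ligand and known YAP1 target, was at 235 ± 5.79 and 203 ± 10.4 FPKM (log2 fold change -0.21, limma BH-adjusted p = 0.13). CCN1, another known YAP1 target of the list, was at 109 ± 11.5 and 108.6 ± 4.03 FPKM (log2 fold change -0.00041, limma BH-adjusted p = 0.999).

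None of the 14 membrane and hemidesmosome partners passed, and 5 had an unadjusted p under 0.05, which 21.9% of all genes reached. CAV1, the coat protein of caveolae, was the most abundant at 338 ± 7.37 FPKM in Sh-NC against 231 ± 54.5 FPKM after knockdown (limma BH-adjusted p = 0.126), and CD63, a tetraspanin, had a log2 fold change of 0.16. Of the 12 genes tested in the trafficking list, 2 rose, and of these only NUMB is an endocytic protein. PTPRJ, a receptor tyrosine phosphatase, rose from 15.9 ± 0.71 to 35.1 ± 1.33 FPKM (log2 fold change 1.10, limma BH-adjusted p = 0.00411), and NUMB, an endocytic adaptor for integrins, rose from 22.6 ± 0.69 to 34.6 ± 1.69 FPKM (SD, n = 3 each, log2 fold change 0.60, limma BH-adjusted p = 0.0135). CLTC, the clathrin heavy chain, and ARF6, a GTPase of recycling, led the list with 86.1 ± 3.34 and 58.9 ± 1.39 FPKM in Sh-NC and did not pass. With replicate number added to the model, none of the 7 partners that passed kept its call. The limma BH-adjusted p then ran from 0.0996 for PTPRJ to 0.153 for DOK1. With condition alone in the model, PTPRJ kept its call with each library left out. DOK1, VCL, THBS1 and FBN1 lost it in all 6 cases, with a limma BH-adjusted p between 0.0539 and 0.143, and NUMB and TGFB2 kept it in 2 of 6. Their log2 fold changes then ranged from -0.55 to -0.42 for DOK1, -0.47 to -0.36 for VCL, 0.40 to 0.46 for THBS1, 0.42 to 0.48 for FBN1, 0.57 to 0.63 for NUMB and -0.92 to -0.79 for TGFB2.

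**Figure D4:**
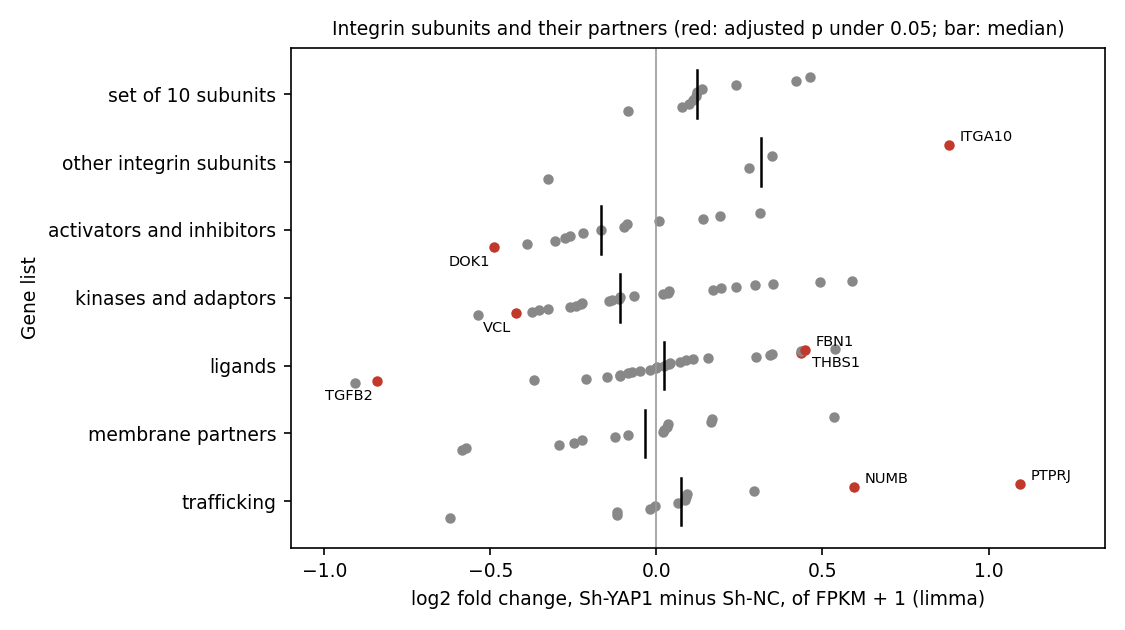
Log2 fold change between Sh-YAP1 and Sh-NC on the log2(FPKM + 1) scale for the 10 integrin genes, the 4 other expressed subunits and 5 lists of partner genes, with 1 point per gene and a bar at each median. The 8 genes in red and named have a limma BH-adjusted p under 0.05, and none of them is among the 10.

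The gene of lowest p among the 10, ITGB4, was compared with 8755 genes that averaged 5 FPKM or more by the Pearson correlation of the log2 values over the 6 libraries. The most similar were CPT2, PLLP and CDC37, with r of 0.99, 0.98 and 0.98. The 6 points share the group difference and the scaling of each library, so these values are a description.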

How the data were processed

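RNA was sequenced from 3 Sh-NC and 3 Sh-YAP1 libraries. The authors deposited FPKM with 2 decimals for 229420 transcript rows per library, each with a gene identifier. The submitters' processing notes name HISAT2 2.0, Bowtie 0.12.2 and hg19 without their roles. The quantification tool, its annotation and its use of strand are not given in the sources used here. The number of rows equalled the transcripts of GENCODE 29, an annotation of GRCh38, for all 10 genes, for 12 of the 16 other subunits and for 89 of the 97 partner genes, so another annotation may have been used. The values hold no coordinates, so the build behind them could not be read from them. Depth is unknown, and precision was taken from the spread between libraries. FPKM summed to between 467493 and 475116 per library.

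Rows were summed per gene. Symbols and overlaps were taken from the reference gene names and from GENCODE 29. Genes averaging 0.5 FPKM or more, and rows averaging 0.1 FPKM or more, were compared as log2(FPKM + 1) by limma 3.58.1 with a mean-variance trend (R 4.3.3). The model held condition alone, and p-values were corrected by the Benjamini-Hochberg procedure across everything tested (BH-adjusted). Python 3.11.15 was used otherwise. The code was tested on simulated data. No 2 libraries were identical, with a Pearson correlation across genes of 0.978 to 0.982 within a group.

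The members and lists were chosen with earlier results of these data known. All 10 members, every other subunit that passed the filter and, from each partner list, the genes past the threshold and the 2 of highest mean in Sh-NC are named. CCN1, TGFB1 and TGFB3 are named as well. Alternatives covered the pseudocount, the filter, the scaling, the trend, a replicate block, each library left out and the rows summed.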

Additional observations from a re-analysis of the deposited data

How the results depend on the processing

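Under all 16 alternatives no integrin gene of the 10 that was tested had a limma BH-adjusted p under 0.05, and the lowest was 0.123. ITGB3 and ITGB8 were not tested with a filter at a mean of 1 FPKM. At an unadjusted p under 0.05, 2 of the 10 passed in the reported fit. This became 1 without a filter, after quantile normalization, after median centring, with rows of at least 0.1 FPKM and without Sh-NC replicate 3 or Sh-YAP1 replicate 2. It became 0 without the trend, without the largest row and without Sh-YAP1 replicate 1 or 3. Of 158 values of single genes under an alternative, 146 kept their direction. The 12 that did not were ITGA3 after quantile normalization (0.039), 5 genes without their largest row (ITGA5 -0.15, ITGAV -1.23, ITGB1 -1.46, ITGB3 -0.061 and ITGB8 -0.35) and 6 with a library left out, where ITGA2 ranged from -0.013 to 0.37, ITGB1 from -0.026 to 0.18 and ITGB8 from -0.014 to 0.24. Without its largest row, ITGB1 keeps mainly the row that was high in Sh-NC replicate 3. The median log2 fold change of the 10 genes was 0.18 and 0.19 with pseudocounts of 0.1 and 0.01 FPKM, 0.15 with rows of at least 0.1 FPKM, -0.11 without the largest row, and 0.10 to 0.18 with a library left out.

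The number of genes called fell from 499 to 232 without a filter and to between 78 and 171 with a library left out, where fewer samples are fitted. The 8 called genes among other subunits and partners became 9 with a filter at a mean of 1 FPKM, 7 after quantile normalization and 6 without the trend. They became 5 without a filter and 1 to 3 with a library left out. Same-numbered libraries shared little variation (correlations of -0.028, 0.062 and 0.004 for replicates 1 to 3), and 2 of 6 libraries correlated best with their own number. With the replicate block, 1 gene in all, 0 of the 10 and 0 of the other subunits and partners were called at a limma BH-adjusted p under 0.05. An unadjusted p under 0.05 was reached by 2779 genes, 35 of them among other subunits and partners. The depth of the libraries is unknown, which limits what can be said of ITGB3 and ITGB8 near 1 FPKM.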
